A study of Mus musculus with 6 samples.

Results

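The 9 genes described here encode transcription factors of the GABAergic lineage of the forebrain, Dlx1, Dlx2, Dlx5, Dlx6, Lhx6, Nkx2-1, Sp8, Sp9 and Prox1. They were taken by gene symbol from the 32285 genes of the count matrix, and each symbol matched 1 gene. The matrix holds single-nucleus RNA-seq counts from the forebrain of mice at postnatal day 16, made from 3 WT mice and 3 Npc1-/- mice, which were littermates from an F1 cross of BALB/cJ and C57BL6/J mice, and received no treatment. The Npc1-/- mice carry 2 copies of the nih null allele of the cholesterol transporter gene Npc1 in every cell. The forebrains were flash frozen, nuclei were released with a Dounce homogenizer, and droplet libraries were made with the 3' chemistry of 10x Genomics, in which each RNA molecule is counted by a unique molecular identifier (UMI). The 6 libraries are joined in 1 matrix and told apart by a suffix on each barcode, but no source used here says which suffix belongs to which mouse. WT and Npc1-/- nuclei were therefore not compared, and libraries 1 to 6 are named by suffix alone.

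After 11 barcodes with at least 10% mitochondrial UMIs were removed, 75867 nuclei with 497727021 UMIs were kept. The libraries held between 8215 and 16109 nuclei, between 51342120 and 107561475 UMIs, and a median of between 4471 and 5439 UMIs per nucleus. Of the barcode sequences, 631 occurred under more than 1 suffix, and these were kept as separate nuclei. Clustering without the 9 genes gave 34 clusters, of which 28 were named from marker genes and fell into 18 classes. The other 6 clusters, with 20375 nuclei, stayed unnamed, 3 because markers of another list led them, and 1 each because mitochondrial genes led, because too few markers were high or because a pair of lists scored alike. Library 3 stood apart from the others in holding 5.45% neuroblast-like nuclei, against 1.25% to 2.20%. Ratios and shares of UMIs that moved outside their counting interval without library 3 are given with and without it. Shares of nuclei with a UMI are given for all libraries joined only. Since no library could be put in a group, the matrix was treated as 1 sample and no test between classes was made. All intervals given below are exact 95% intervals that cover counting error only, and agreement between libraries is given as a count of libraries.

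GABAergic neurons of the forebrain are born in the ganglionic eminences of the embryo and, for the olfactory bulb, in the subventricular zone after birth. The DLX homeodomain proteins act in these progenitors and their newborn neurons, where they switch on the enzymes that make GABA and allow the cells to migrate. NKX2-1 specifies the medial ganglionic eminence and turns on Lhx6, which the somatostatin and parvalbumin interneurons keep into adult life. SP8 and SP9 are zinc finger proteins of the ganglionic eminences and of olfactory bulb neuroblasts, and SP9 is needed for striatal neurons of the indirect pathway. PROX1 is a homeodomain protein of interneurons from the caudal eminence, and also of dentate granule neurons and of the oligodendrocyte lineage.

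In the GRCm38 annotation the 9 genes lie on 4 chromosomes, and all are protein coding. Dlx1 (chr2:71528113-71533981, plus strand) and Dlx2 (chr2:71543408-71546754, minus strand) are neighbours, as are Dlx6 (chr6:6863334-6868568, plus strand) and Dlx5 (chr6:6877805-6882085, minus strand). Exons of Dlx1 overlap those of the antisense RNA Dlx1as, and Dlx6 lies inside the span of the antisense RNA Dlx6os1 without sharing exon bases with it. The sources used here do not say whether strand was used in counting or whether intronic reads were counted, so counts of Dlx1 and Dlx1as, of Dlx6 and Dlx6os1, and of Prox1 and the antisense gene Prox1os could in part be exchanged. Sp9 (chr2:73271925-73284706, plus strand) and Lhx6 (chr2:36081953-36105408, minus strand) share the chromosome of Dlx1 and Dlx2. Nkx2-1 (chr12:56531958-56536908, minus strand) and Sp8 (chr12:118846329-118852576, plus strand) lie far apart on chromosome 12. Prox1 (chr1:190118035-190170714, minus strand) overlaps exons of Prox1os at its 5′ end.

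The RefSeq promoter table for GRCm38.p6 matched 7 of the 9 genes, with 12 start sites between them. The 250 bases before the start site are shown for the neighbouring pair Dlx1 and Dlx2, whose levels followed each other across clusters, and for Lhx6 and Prox1, which parted most widely between the sides of the inhibitory class. The windows are chr2:71529195-71529444 on the plus strand for Dlx1, chr2:71546755-71547004 on the minus strand for Dlx2, chr2:36105409-36105658 on the minus strand for Lhx6, and chr1:190170828-190171077 on the minus strand for Prox1, each written 5′ to 3′ so that it ends at the base before the start. The Dlx1 window lies inside the annotated span of the gene, before a start site within it. Capitals mark the E-box CAGCTG.
Dlx1: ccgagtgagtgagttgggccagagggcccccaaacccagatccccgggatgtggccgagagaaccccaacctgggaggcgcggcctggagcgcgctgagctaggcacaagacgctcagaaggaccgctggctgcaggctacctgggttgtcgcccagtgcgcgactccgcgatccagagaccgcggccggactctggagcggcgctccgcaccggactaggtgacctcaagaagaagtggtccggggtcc
Dlx2: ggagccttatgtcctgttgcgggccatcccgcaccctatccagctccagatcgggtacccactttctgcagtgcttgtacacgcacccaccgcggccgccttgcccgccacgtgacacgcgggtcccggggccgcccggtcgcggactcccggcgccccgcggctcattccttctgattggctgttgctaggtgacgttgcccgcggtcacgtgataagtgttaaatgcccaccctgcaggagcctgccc
Lhx6: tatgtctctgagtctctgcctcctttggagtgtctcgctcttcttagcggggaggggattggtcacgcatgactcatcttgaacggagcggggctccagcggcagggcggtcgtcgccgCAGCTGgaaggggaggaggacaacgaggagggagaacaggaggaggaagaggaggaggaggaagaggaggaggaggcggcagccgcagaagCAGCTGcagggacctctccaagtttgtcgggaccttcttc
Prox1: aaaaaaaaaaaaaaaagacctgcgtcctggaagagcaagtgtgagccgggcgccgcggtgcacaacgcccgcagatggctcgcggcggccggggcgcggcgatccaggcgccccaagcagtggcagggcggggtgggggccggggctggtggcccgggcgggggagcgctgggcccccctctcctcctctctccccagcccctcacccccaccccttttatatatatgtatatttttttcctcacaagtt
Both strands of each window were searched for the homeodomain motif TAATTA and for CAGCTG, which read the same on both strands and met in no window. CAGCTG was present in 13% of all 32851 promoters of that length and in 1 of the 12 windows of the 9 genes, the Lhx6 window above, 131 and 40 bases before the start. TAATTA was present in 4.84% of all promoters and in 1 of the 12 windows, at a start of Sp8, 188 bases before it. The 12 windows held between 1 and 32 CpG dinucleotides, and 10 of them held more than the median of 6 over all promoters.

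All 9 genes were sparse. The 75867 nuclei held 2374 UMIs of Dlx1, 725 of Dlx2, 890 of Dlx5, 1502 of Dlx6, 2725 of Lhx6, 350 of Nkx2-1, 548 of Sp8, 2558 of Sp9 and 14576 of Prox1. The share of nuclei with at least 1 UMI ranged from 0.434% for Nkx2-1 to 10.8% for Prox1. Counts of 3' UMIs depend on each gene's 3' end, so each gene is compared below with itself across nuclei and not with the other genes.

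The GABAergic label was checked by asking where the UMIs lay. The inhibitory neuron-like (3367 nuclei), striatal projection neuron-like (5759 nuclei) and neuroblast-like (1767 nuclei) classes together made up 14.4% of nuclei and 16.5% of all UMIs. They held 46.1% of Lhx6 UMIs (interval 44.2% to 47.9%), 39.1% of Dlx6, 38.0% of Dlx1, 37.6% of Sp9, 36.9% of Dlx5, 35.4% of Sp8 and 32.0% of Dlx2. For these 7 genes the share lay above 16.5% in all 6 libraries, the lowest being 23.3% for Sp8. Without library 3 the Dlx1 share was 35.8%, and without library 2 it was 40.2%. The same classes held only 17.1% of Nkx2-1 UMIs (13.3% to 21.5%) and 13.4% of Prox1 UMIs (12.8% to 14.0%), so these 2 genes were not enriched there as the other 7 were. Nkx2-1 had 104 of its 350 UMIs in an unnamed cluster of 5463 nuclei led by Baiap3, and Prox1 had 19.2% of its UMIs in dentate granule neuron-like nuclei, 14.0% in mature oligodendrocyte-like nuclei and 12.3% in subcortical glutamatergic neuron-like nuclei.

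Levels are given as CPM, the count of a gene per 1000000 UMIs of all genes in the nuclei of a class. RNA set free when nuclei are made also reaches droplets, so the microglia-like class (2619 nuclei), which should lack all 9 genes, served as the reference for background. That class was shallow, with a median of 2277 UMIs per nucleus against 7519 in the inhibitory neuron-like, 6510 in the striatal projection neuron-like, 3664 in the neuroblast-like and 4043 in the dividing-like class. Its CPM exceeded that of the deep excitatory neuron-like nuclei (median 8500 UMIs) for all 9 genes, for example 7.13 against 1.35 for Dlx1 and 34.3 against 4.62 for Prox1. Shares of nuclei with a UMI were therefore compared after each nucleus had been thinned to 2000 UMIs, with shallower nuclei left out. Thinning evens the depth, but the microglia-like Dlx1 share stayed above the excitatory one, as given below. A class that did not exceed this reference was thus not shown to lack the gene.

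**Figure D1:**
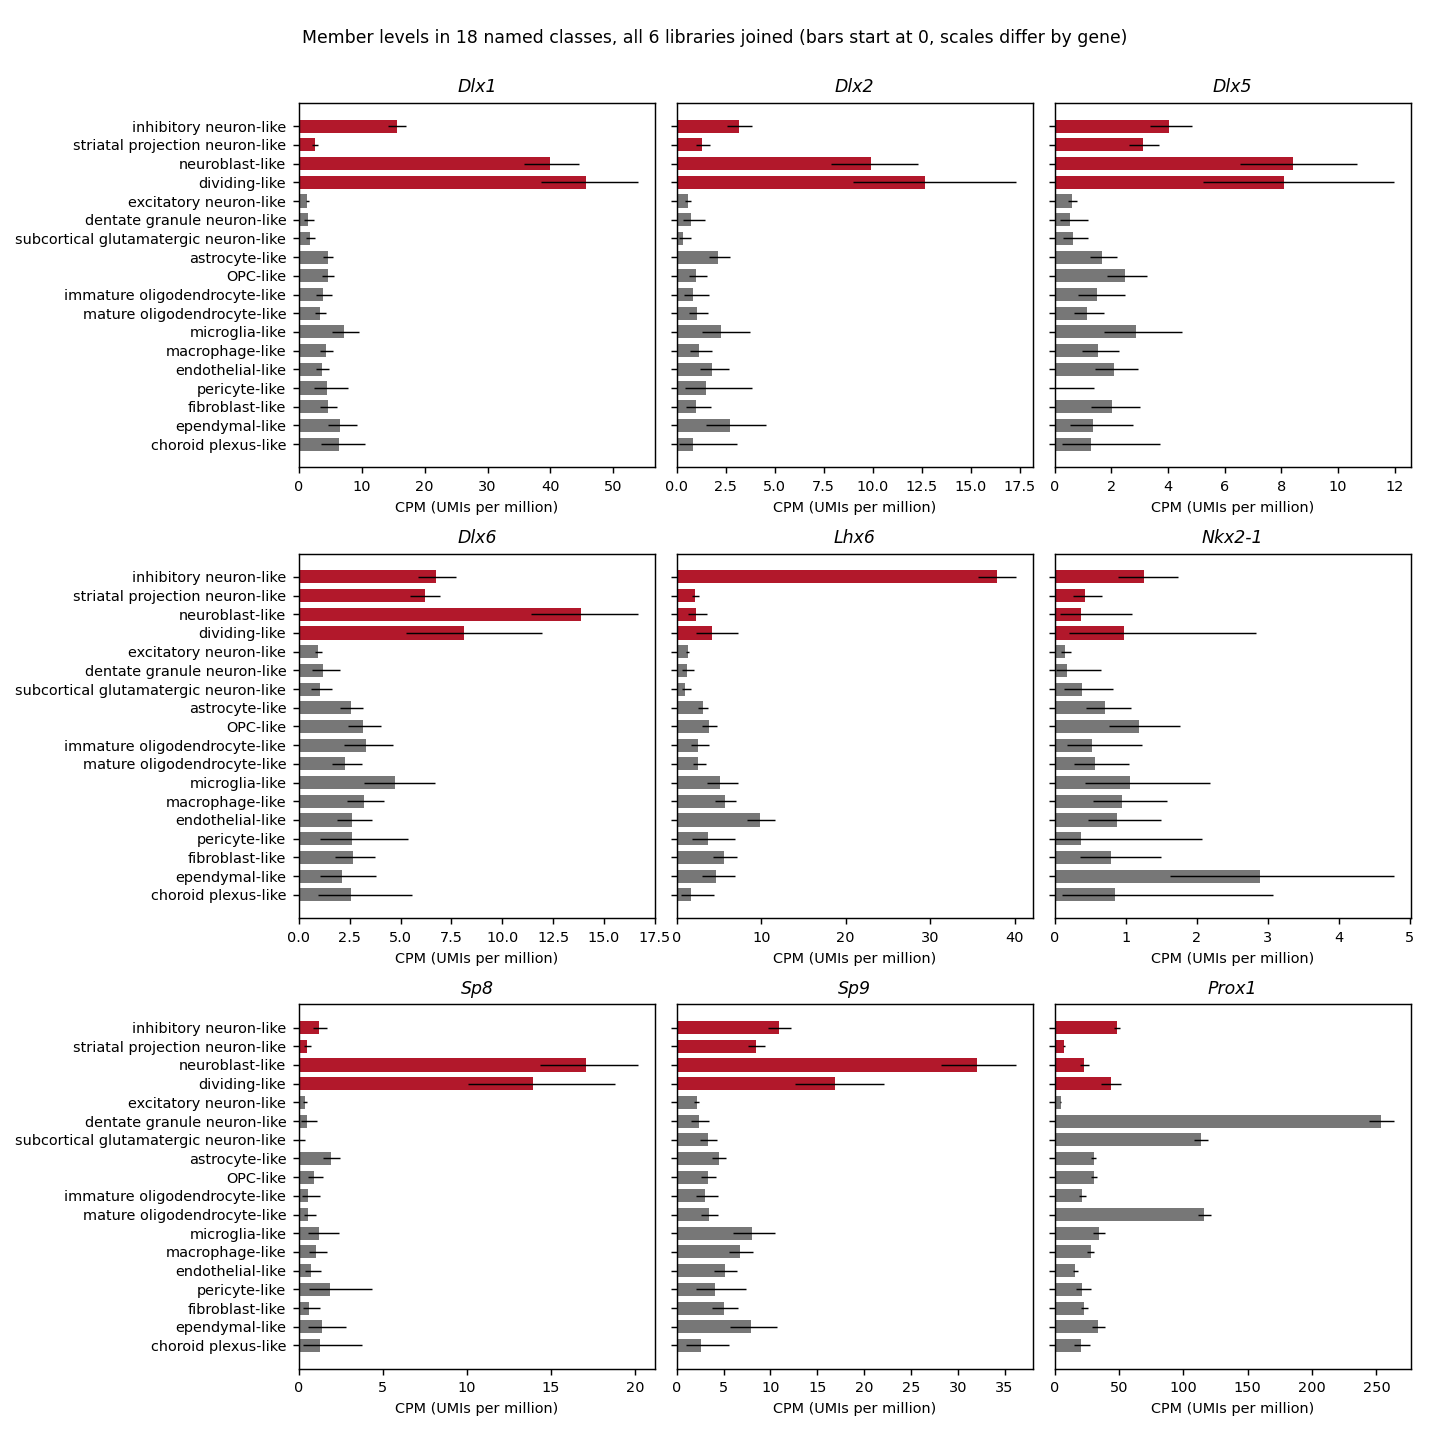
Levels of the 9 genes (horizontal bars, CPM from 0, with 95% counting intervals as lines) in the 18 named classes, all libraries joined, with a scale of its own for each gene. Dlx1, Dlx2, Dlx5, Dlx6, Sp8 and Sp9 peaked in neuroblast-like or dividing-like nuclei, Lhx6 in inhibitory neuron-like nuclei at 37.9 CPM, Nkx2-1 in ependymal-like nuclei at 2.89 CPM and Prox1 in dentate granule neuron-like nuclei at 254 CPM.

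Dlx1 and Dlx2, which act early and in the dividing and newborn cells of the lineage, had their highest levels in dividing-like and neuroblast-like nuclei. Dlx1 reached 45.7 CPM (38.5 to 53.9) in dividing-like, 39.97 CPM (35.7 to 44.6) in neuroblast-like and 15.6 CPM (14.2 to 17.1) in inhibitory neuron-like nuclei, and stood at 7.13 CPM (5.24 to 9.48) in microglia-like nuclei. The intervals of dividing-like and neuroblast-like nuclei overlapped, and those of the next classes in the order did not until microglia-like nuclei were reached. In neuroblast-like nuclei Dlx1 measured 28.3, 38.9, 40.3, 34.5, 39.4 and 61.4 CPM in libraries 1 to 6, and in inhibitory neuron-like nuclei 14.2, 13.9, 17.8, 14.3, 17.8 and 15.9 CPM. Library 6 was high among neuroblast-like nuclei, and the ranges of the 2 classes did not overlap. At 2000 UMIs, 9.24% of dividing-like, 8.10% of neuroblast-like and 2.68% of inhibitory neuron-like nuclei had a Dlx1 UMI, against 1.27% (0.788% to 1.94%) of microglia-like nuclei and 0.292% of excitatory neuron-like nuclei. Striatal projection neuron-like nuclei, at 2.49 CPM and 0.566% of nuclei, did not exceed the microglia-like share. Dlx2 followed the same order at lower counts, with 12.6 CPM in dividing-like, 9.90 CPM in neuroblast-like and 3.16 CPM in inhibitory neuron-like nuclei, and only the former 2 exceeded the microglia-like share of 0.242%. In the libraries Dlx2 measured 13.5, 14.3, 7.46, 7.50, 15.5 and 10.5 CPM in neuroblast-like nuclei and 3.75, 3.39, 1.94, 2.15, 4.71 and 3.28 CPM in inhibitory neuron-like nuclei, again without overlap.

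Dlx5 and Dlx6, which act downstream of Dlx1 and Dlx2, spread more evenly over the GABAergic classes. Dlx5 measured 8.41 CPM in neuroblast-like, 8.11 CPM in dividing-like, 4.05 CPM in inhibitory neuron-like and 3.13 CPM in striatal projection neuron-like nuclei, against 2.88 CPM in microglia-like nuclei. Dlx6 measured 13.9, 8.11, 6.74 and 6.18 CPM in the same order, against 4.70 CPM in microglia-like nuclei. For Dlx6 the counting intervals of neighbours in this order overlapped throughout. Neuroblast-like nuclei alone exceeded the microglia-like share at 2000 UMIs, with 1.81% against 0.544% for Dlx5 and 3.11% against 1.03% for Dlx6. Dlx6 in neuroblast-like nuclei ranged from 7.50 CPM in library 4 to 26.9 CPM in library 1, which overlapped the range of inhibitory neuron-like nuclei, from 4.92 to 7.98 CPM.

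The long antisense RNAs of both pairs were also counted. Dlx6os1, from which regulatory RNAs of the Dlx5 and Dlx6 locus are made, had 26898 UMIs, 58.6% of them in the 3 GABAergic classes, and measured 512 CPM in neuroblast-like, 243 CPM in dividing-like, 238 CPM in inhibitory neuron-like and 101 CPM in striatal projection neuron-like nuclei, against 40.8 CPM in microglia-like nuclei. Dlx1as had 6470 UMIs and measured 64.8, 62.9, 59.8 and 6.93 CPM in the same 4 classes, against 16.1 CPM in microglia-like nuclei. Dlx1as thus did not follow the fall of Dlx1 from neuroblast-like to inhibitory neuron-like nuclei.

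Sp8 was high in the neuroblast-like and dividing-like classes and low in all other named classes. It measured 17.1 CPM (14.3 to 20.2) in neuroblast-like and 13.9 CPM (10.1 to 18.8) in dividing-like nuclei, and between 0.0632 and 1.90 CPM in each of the other 16 named classes. In libraries 1 to 6 Sp8 measured 26.9, 15.3, 14.5, 16.5, 16.7 and 28.1 CPM in neuroblast-like nuclei, and 1.97, 0.849, 1.76, 0.781, 0.856 and 0.821 CPM in inhibitory neuron-like nuclei. Every library of the former lay above every library of the latter, and libraries 1 and 6 were the highest. At 2000 UMIs 3.17% of neuroblast-like and 1.85% of dividing-like nuclei had a Sp8 UMI, against 0.181% of microglia-like nuclei.

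Sp9 fell in steps from neuroblast-like nuclei at 32.0 CPM (28.3 to 36.2) to dividing-like at 16.9 CPM (12.6 to 22.1), inhibitory neuron-like at 10.9 CPM (9.78 to 12.2) and then the striatal class at 8.49 CPM (7.65 to 9.40). None of the first 3 steps had overlapping counting intervals, but the ranges of the libraries overlapped at each step. The microglia-like level of 8.04 CPM lay close to the striatal level, and at 2000 UMIs only the neuroblast-like (5.96%) and dividing-like (3.70%) shares exceeded the microglia-like share of 1.33%. Sp9 in neuroblast-like nuclei measured 31.0, 34.8, 30.1, 45.0, 27.5 and 35.1 CPM in libraries 1 to 6, and in inhibitory neuron-like nuclei 12.2, 11.5, 9.32, 9.37, 12 and 11.5 CPM. The 2 classes did not overlap in any pair of libraries.

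Lhx6 was highest in the inhibitory neuron-like class. It measured 37.9 CPM (35.7 to 40.1) there and 39.4, 34.6, 43.8, 37.1, 35.5 and 35.8 CPM in libraries 1 to 6, a narrow range. The class next in order was endothelial-like nuclei, with 9.87 CPM (8.34 to 11.6) and between 1.98 and 15.6 CPM in the libraries, followed by the macrophage-like (5.67 CPM), fibroblast-like (5.53 CPM) and microglia-like (5.16 CPM) classes. Neuroblast-like nuclei had 2.23 CPM and striatal projection neuron-like nuclei 2.20 CPM. At 2000 UMIs 6.93% (6.09% to 7.85%) of inhibitory neuron-like nuclei had a Lhx6 UMI, against 0.786% of microglia-like nuclei, and no other class exceeded the microglia-like share beyond counting error. The endothelial-like share was 1.77% (1.32% to 2.31%), close to the upper limit of the microglia-like share, 1.34%.

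Nkx2-1, with 350 UMIs in all, was at the limit of what this depth can show. It measured 2.89 CPM (1.62 to 4.77) in ependymal-like nuclei, from 15 UMIs, and 1.26 CPM (0.893 to 1.73) in inhibitory neuron-like nuclei, from 38 UMIs. At 2000 UMIs no named class exceeded the microglia-like share of 0.181% (0.0374% to 0.529%). In the Baiap3-led cluster Nkx2-1 measured 2.23 CPM (1.82 to 2.7), the largest number of UMIs of any cluster.

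Prox1 was counted mainly outside the GABAergic classes. It measured 254 CPM (244 to 263) in dentate granule neuron-like, 116 CPM (111 to 121) in mature oligodendrocyte-like, 114 CPM (108 to 119) in subcortical glutamatergic neuron-like and 48.3 CPM (45.9 to 50.9) in inhibitory neuron-like nuclei. The mature oligodendrocyte-like and subcortical glutamatergic levels did not differ beyond counting error. In dentate granule neuron-like nuclei Prox1 measured 270, 201, 263, 283, 256 and 269 CPM in libraries 1 to 6, with library 2 the lowest, and the largest count in 1 nucleus, 158 UMIs, was in this class. In mature oligodendrocyte-like nuclei it measured 116, 118, 119, 89.1, 126 and 103 CPM, below all dentate granule values in all libraries. At 2000 UMIs 35.6% of dentate granule neuron-like, 22.1% of mature oligodendrocyte-like, 18.6% of subcortical glutamatergic neuron-like and 8.73% (7.80% to 9.75%) of inhibitory neuron-like nuclei had a Prox1 UMI, against 5.99% (4.89% to 7.24%) of microglia-like nuclei. Striatal projection neuron-like nuclei had 7.11 CPM and 1.54% of nuclei, both below the microglia-like values.

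**Figure D2:**
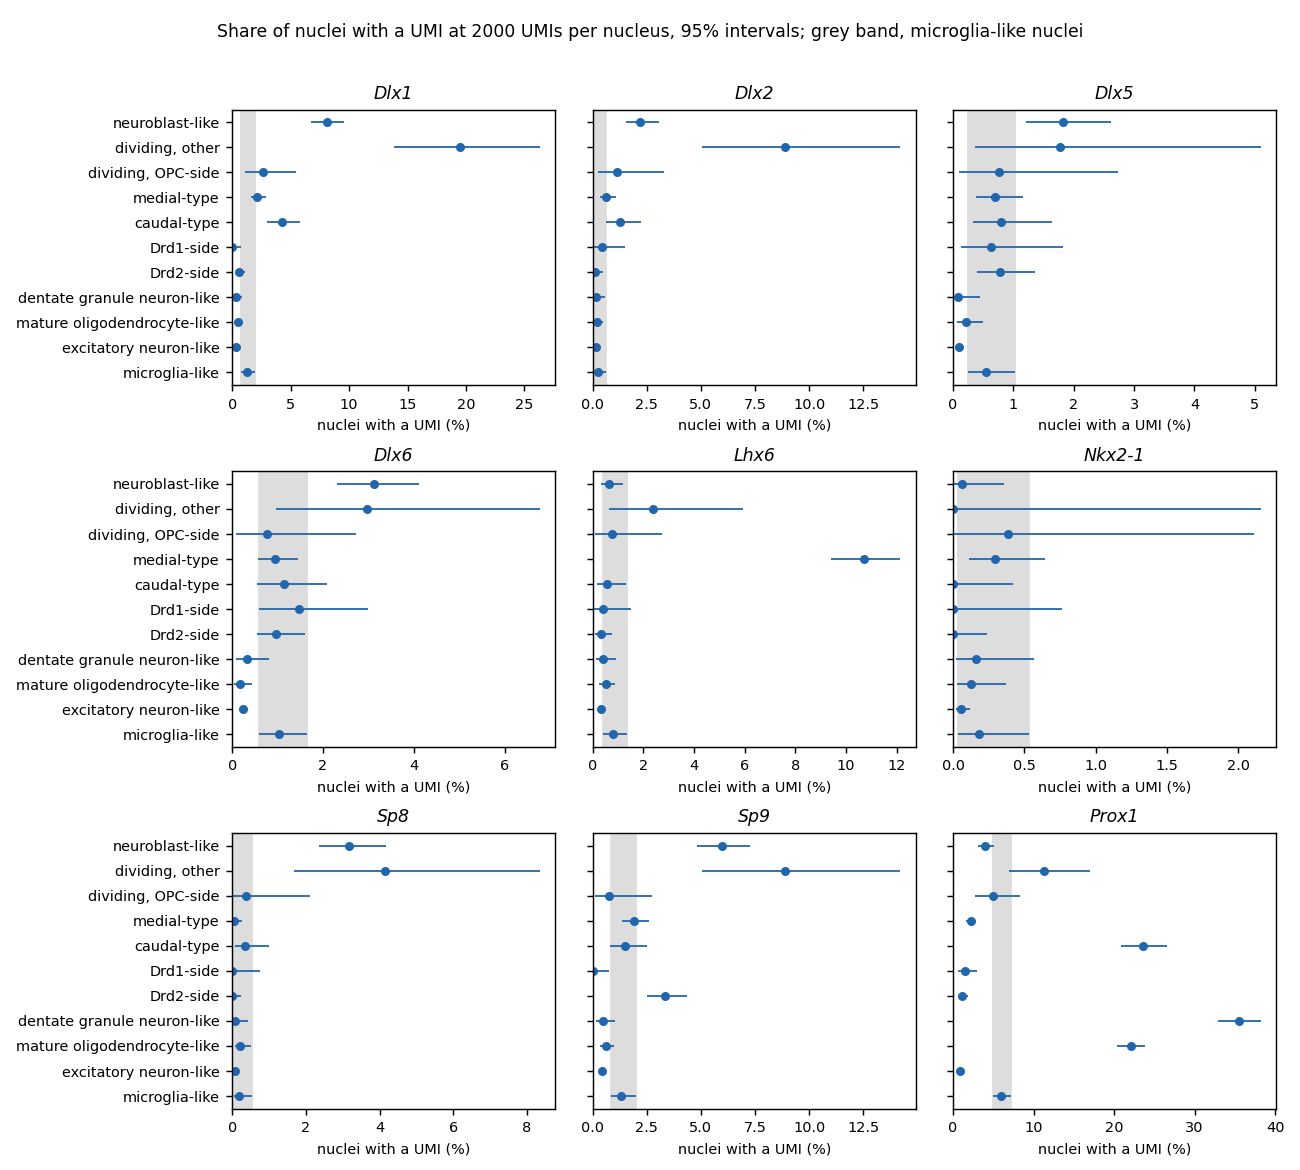
Share of nuclei with at least 1 UMI of each gene (points, percent, with 95% counting intervals) by class or side, after thinning to 2000 UMIs per nucleus. The grey band is the interval of microglia-like nuclei, and Lhx6 left it in medial-type inhibitory nuclei (10.7%), Prox1 in caudal-type nuclei (23.6%), Sp9 in Drd2-side nuclei (3.36%) and Sp8 in neuroblast-like nuclei (3.17%), while the Nkx2-1 intervals all met it.

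Neuroblast-like nuclei were compared with inhibitory neuron-like nuclei, which differed from them in markers of newborn neurons and of olfactory bulb-type neurons. The neuroblast-like cluster had 5 of 8 markers of newborn neurons at least 2-fold above the median cluster, Dcx, Sox11, Sox4, Igfbpl1 and Tubb3, of which Igfbpl1 was among its 10 leading genes, and also carried markers of olfactory bulb-type GABA neurons such as Meis2, Pbx3 and Tshz1, whose list summed to 6990 CPM against 895 CPM in the inhibitory class. The neuroblast list summed to 1016 CPM in this class, 452 CPM in the inhibitory class and 598 CPM in microglia-like nuclei. The name took the higher score of the neuroblast and olfactory bulb-type lists, so newborn state and lineage cannot be told apart here. A gene was counted as higher or lower where its CPM differed by at least 2-fold and the counting interval of the ratio excluded 1. Of the 8 members with at least 50 UMIs over both classes, 6 were higher in neuroblast-like nuclei, against 9.06% of 15324 genes tested, and 2 were lower, against 6.28%. The median log2 ratio was 1.21 over these members and 0.20 over all genes tested. Sp8 had the largest ratio, 14.3-fold (log2 3.84, 3.30 to 4.41), followed by Dlx2 at 3.14-fold, Sp9 at 2.93-fold, Dlx1 at 2.56-fold, Dlx5 at 2.08-fold and Dlx6 at 2.05-fold, and each of the 6 was higher in 6 of 6 libraries. Lhx6 was 17.0-fold lower (log2 -4.09, -4.85 to -3.42) and Prox1 2.11-fold lower (log2 -1.08, -1.31 to -0.86), each in 6 of 6 libraries. Inhibitory neuron-like levels of Sp8 (1.20 against 1.21 CPM), Dlx2, Dlx5, Dlx6 and Sp9 did not exceed microglia-like levels beyond counting error. Neuroblast-like levels of Lhx6 (2.23 against 5.16 CPM) and Prox1 (22.9 against 34.3 CPM) lay below the microglia-like ones. The sizes of these ratios depend on how much of the lower level is background, which was not tested. Nkx2-1, with 3 UMIs in neuroblast-like and 38 in inhibitory neuron-like nuclei, had a log2 ratio of -1.77 (-4.11 to -0.11) and fell under the count minimum for the background.

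The Prox1 ratio fell under 2-fold without library 3, which held 806 of the 1767 neuroblast-like nuclei (log2 -0.67), as the median of libraries (-0.87) and with the members allowed among the genes used for clustering (-0.98), and in UMIs per nucleus it was -2.04. The Nkx2-1 ratio had an interval that included 0 without library 1, 2, 3 or 5. Dlx5 and Dlx6 lay close to 2-fold and fell under it without library 1 (log2 0.97 and 0.94) or library 6 (0.92 and 0.97), and Dlx5 also without library 2 (0.95). Without library 3 the Dlx5 ratio was 1.52. Both also fell under 2-fold without the nuclei of highest doublet scores (0.98 and 0.96), and Dlx6 did so at a clustering resolution of 0.5 (0.90) and in nuclei with at least 2000 UMIs and under 1% mitochondrial UMIs (0.93). Markers of mature oligodendrocytes, a class high in Prox1, summed to 682 CPM in neuroblast-like nuclei (258 to 1586 CPM over the libraries) and to 416 CPM in inhibitory neuron-like nuclei (81.0 to 766 CPM), and their part in the Prox1 ratio was not tested. Depth also differed between the classes, as neuroblast-like nuclei had 3664 UMIs and inhibitory neuron-like nuclei 7519. Per 1000 nuclei Dlx1 had 183 UMIs in neuroblast-like and 139 in inhibitory neuron-like nuclei, Dlx5 38.5 and 36.2, Dlx6 63.4 and 60.3, and Sp8 78.1 and 10.7. On that scale Sp8 alone of the 6 stayed at least 2-fold higher, and fewer UMIs per nucleus cannot be told apart from less RNA per nucleus.

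The other genes of the pathway were taken from a list of 42 genes of GABAergic development and identity. Of the 38 with enough UMIs, 14 were higher in neuroblast-like nuclei, against 9.06% of all genes tested, and 7 were lower, against 6.28%. Their median log2 ratio was 0.58. Meis2 (28.6-fold), Pbx3 (21.9-fold), Tshz1 (19.3-fold) and Sall3 (16.5-fold), factors of lateral eminence and olfactory bulb neurons, were higher by the largest ratios, and Meis2, Pbx3 and Tshz1 are also among the olfactory bulb markers named above. Npas1 (14.4-fold), Maf (12.5-fold) and Sox6 (5.72-fold), which act in cortical interneurons, were lower, each in 6 of 6 libraries. Sox6 is among the markers that named the inhibitory class, so its direction was set in part by the naming. The list of 42 genes also holds Dcx, Sox11 and Sox4, markers of the neuroblast-like class, and Etv1, an olfactory bulb-type marker. It holds Gad1, Gad2, Slc32a1, Erbb4 and Nr2f2, markers of the inhibitory class or its sides, as well. The counts over this list were therefore set in part by the naming. Gad1, which makes GABA, had a log2 ratio of 0.76, under 2-fold.

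**Figure D3:**
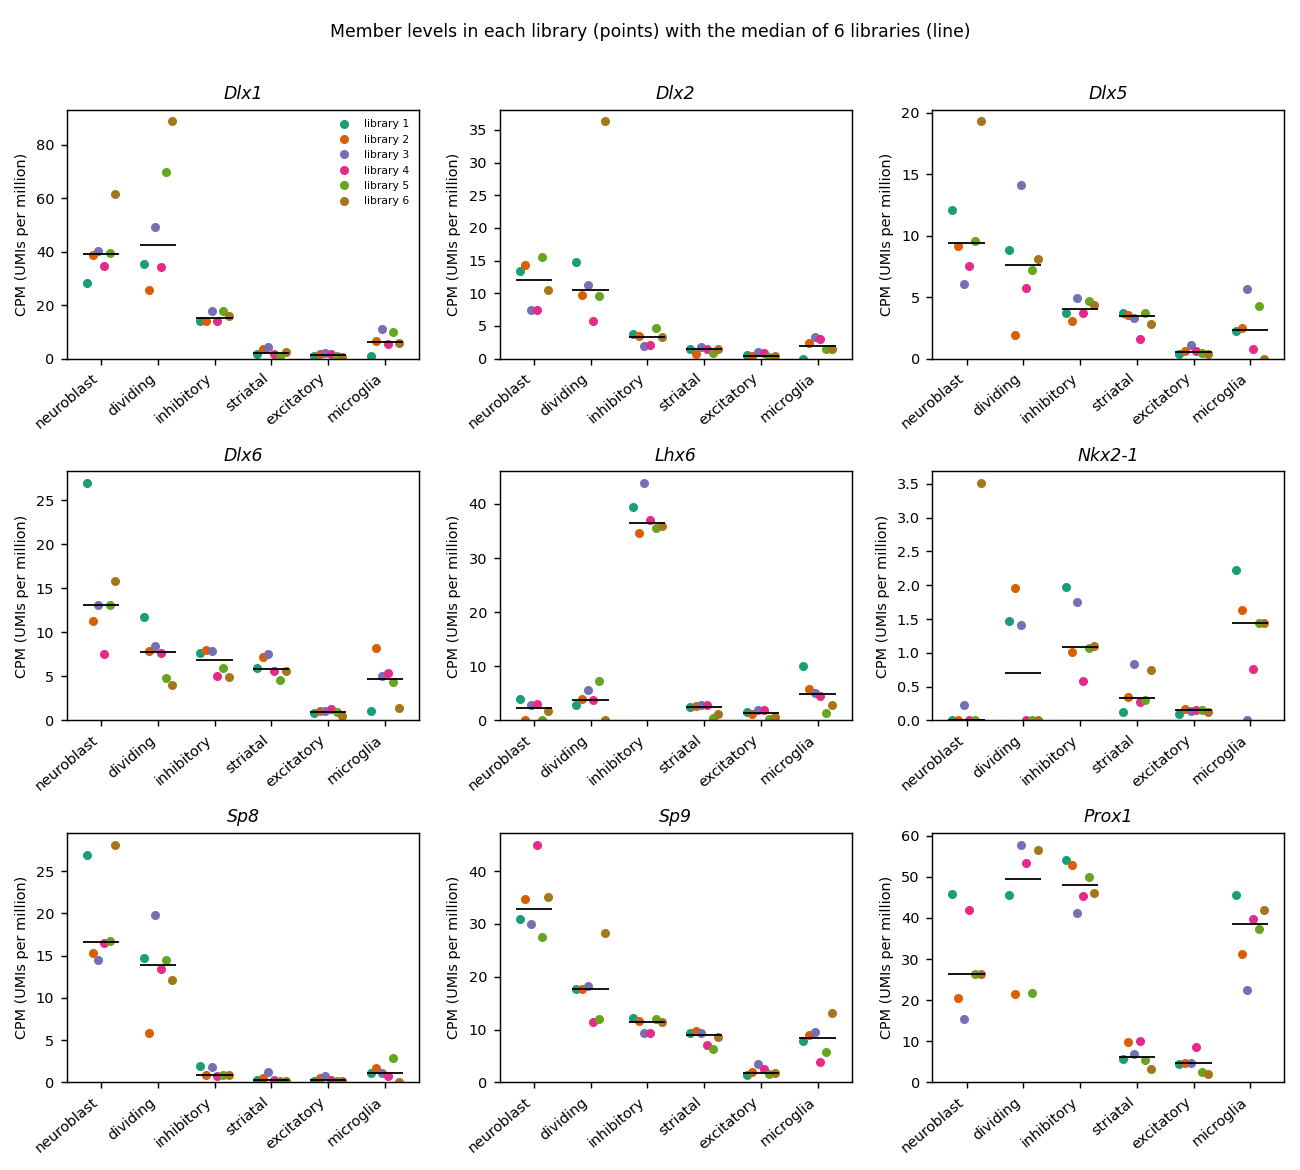
Levels of the 9 genes (CPM) in each of the 6 libraries (coloured points) for 6 classes, with the median over libraries as a line. The neuroblast-like points of Dlx1 (28.3 to 61.4 CPM), Sp8 (14.5 to 28.1 CPM) and Sp9 (27.5 to 45.0 CPM) lie above every inhibitory neuron-like point of the same gene, and the Lhx6 points show the reverse.

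Striatal projection neurons, the GABAergic output cells of the striatum, come from the lateral eminence and were compared with the inhibitory class. All 9 members had enough UMIs, and 0 were higher in striatal projection neuron-like nuclei, against 6.74% of 16778 genes tested, while 6 were lower, against 10.5%. Lhx6 was 17.2-fold, Prox1 6.79-fold, Dlx1 6.25-fold, Nkx2-1 2.93-fold, Sp8 2.64-fold and Dlx2 2.44-fold lower, each in 6 of 6 libraries. For Nkx2-1, Sp8 and Dlx2 the inhibitory levels (1.26, 1.20 and 3.16 CPM) were themselves not above the microglia-like ones (1.06, 1.21 and 2.28 CPM) beyond counting error. They were above those of the deep excitatory neuron-like nuclei (0.142, 0.343 and 0.569 CPM) beyond counting error. Whether these 3 ratios compare levels near background therefore depends on the reference class. For Lhx6, Prox1 and Dlx1 the striatal levels (2.20, 7.11 and 2.49 CPM) lay below the microglia-like ones (5.16, 34.3 and 7.13 CPM). They lay above the excitatory neuron-like ones (1.27, 4.62 and 1.35 CPM), so the sizes of these folds also depend on the reference class. The other 3 members, Dlx5 (log2 -0.38, -0.74 to -0.01), Dlx6 (-0.13, -0.39 to 0.14) and Sp9 (-0.36, -0.58 to -0.15), stayed within 2-fold. The median log2 ratio was -1.40 over the members and -0.05 over all genes tested. Dlx1as was 8.62-fold and Dlx6os1 2.36-fold lower. Of 40 genes of the GABAergic list, 11 were higher and 14 lower, with Rarb, a retinoic acid receptor of the striatum, higher by 21.7-fold, Ebf1 by 15.2-fold, Meis2 by 14.4-fold and Isl1 by 13.8-fold, and Npas1 lower by 20.5-fold, Maf by 18.6-fold, Sox6 by 15.0-fold and Erbb4, the receptor of migrating interneurons, by 11.2-fold. Rarb is among the markers that named the striatal class, and Sox6 and Erbb4 are among those of the inhibitory class. Their directions were set in part by the naming, and they enter these counts.

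Within the striatal class, 480 nuclei were on the Drd1 side and 1556 on the Drd2 side by the UMIs of 4 marker genes each, Drd1, Tac1, Pdyn and Sfxn1 against Drd2, Adora2a, Penk and Gpr6, and 3723 had too few of these UMIs or were mixed. The Drd1 side stands for the direct pathway and the Drd2 side for the indirect pathway. Sp9 was the member that parted them. It had 8 UMIs (1.60 CPM) on the Drd1 side and 221 UMIs (16.4 CPM) on the Drd2 side, a log2 ratio of -3.36 (-4.59 to -2.36), and was lower on the Drd1 side in 6 of 6 libraries. In libraries 1 to 6 Sp9 measured 1.71, 1.90, 2.60, 1.91, 0 and 1.98 CPM on the Drd1 side and 19.7, 21.6, 13.2, 13.6, 13.3 and 15.8 CPM on the Drd2 side. The sides did not overlap, and the microglia-like level of 8.04 CPM lay between them. At 2000 UMIs 0 of 479 Drd1-side nuclei had a Sp9 UMI, which allows a share of up to 0.626% when 3 counts are taken as the limit and 0.767% by the exact interval, against 3.36% of Drd2-side nuclei. Of the 4 members with at least 50 UMIs over both sides, 0 were higher on the Drd1 side, against 0.572% of 12761 genes tested, and 1, Sp9, was lower, against 0.956%. Dlx5 (log2 0.14), Dlx6 (0.07) and Prox1 (0.44) had intervals that included 0. With sides at 5 UMIs and 90% Dlx6 turned to -0.98 (-3.31 to 0.66) and Prox1 to -1.35 (-4.45 to 0.61), again with intervals that included 0. Dlx1, below the count minimum with 4 and 34 UMIs, had a log2 ratio of -1.66 (-3.62 to -0.18), and this call was lost without library 1, 3, 5 or 6. Of 32 genes of the GABAergic list, 6 were higher on the Drd1 side, among them Ebf1 (12-fold), Isl1 (10.4-fold), Foxp2 (3.77-fold) and Ikzf1 (3.73-fold), and 0 were lower.

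The inhibitory class was split in the same way by markers that hold no member, Sst, Pvalb, Nxph1 and Sox6 for interneurons of medial eminence type (2053 nuclei) and Adarb2, Vip, Htr3a and Nr2f2 for those of caudal eminence type (891 nuclei), with 423 nuclei on neither side. Lhx6 and Prox1 parted the sides in opposite ways. Lhx6 had 1068 UMIs (55.8 CPM) in medial-type and 9 UMIs (1.25 CPM) in caudal-type nuclei, a log2 ratio of 5.48 (4.55 to 6.61). In the libraries it measured 58.1, 47.9, 64.3, 58.6, 55.0 and 49.96 CPM on the medial side and 1.89, 1.47, 1.45, 1.46, 0.810 and 0 CPM on the caudal side. Prox1 had 191 UMIs (9.98 CPM) in medial-type and 1000 UMIs (139 CPM) in caudal-type nuclei, a log2 ratio of -3.80 (-4.03 to -3.57). In the libraries it measured 12.4, 12.7, 9.37, 13.3, 4.87 and 5.37 CPM on the medial side and 145, 164, 129, 119, 144 and 130 CPM on the caudal side. For both genes the sides were far apart in every library. At 2000 UMIs 10.7% of medial-type and 0.570% of caudal-type nuclei had a Lhx6 UMI, and 2.16% and 23.6% had a Prox1 UMI, so that the Lhx6 share of caudal-type nuclei and the Prox1 share of medial-type nuclei did not exceed the microglia-like shares of 0.786% and 5.99%.

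Of the 7 members with at least 50 UMIs over both sides, 1, Lhx6, was higher in medial-type nuclei, against 3.87% of 14146 genes tested, and 2, Prox1 and Dlx1, were lower, against 3.47%. Dlx1 measured 10.8 CPM in medial-type and 26.9 CPM in caudal-type nuclei, a log2 ratio of -1.32 (-1.61 to -1.03), lower on the medial side in 6 of 6 libraries. Dlx5 (log2 -0.83), Dlx6 (-0.90) and Dlx2 (-0.65) were lower by less than 2-fold, and the interval of Dlx2 included 0, while Dlx6 passed 2-fold without library 3 (-1.14), without the nuclei of highest doublet scores (-1.04) and with sides at 3 UMIs and 90% (-1.06). Sp9 went the other way by less than 2-fold, at 11.5 against 6.52 CPM (log2 0.82, 0.36 to 1.31), higher on the medial side in 6 of 6 libraries, and passed 2-fold with sides at 3 UMIs and 90% (1.14) and in UMIs per nucleus (1.02). Below the count minimum, Nkx2-1 had 33 UMIs in medial-type nuclei and 1 in caudal-type nuclei (log2 3.64, 1.06 to 8.98), and Sp8 had 6 and 20 (log2 -3.15, -4.75 to -1.78). The caudal-type UMI of Nkx2-1 was in library 3, and the other 5 libraries had none there, among fewer nuclei than on the medial side. Of 34 genes of the GABAergic list, 6 were higher in medial-type nuclei, among them Sox6, which chose the side, Satb1 (4.63-fold) and Etv1 (2.29-fold), and 8 were lower, among them Nr2e1 (16.3-fold), Nr2f2, which chose the other side, Pbx3 (5.29-fold) and Npas1 (4.63-fold). Dlx6os1 was 3.95-fold and Dlx1as 2.00-fold lower.

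Lhx6 and Prox1 were also counted within single nuclei of the whole inhibitory class. This class pools both sides, so the contrast between the sides by itself lowers the number of nuclei with both genes. No count within a side was made. At 2000 UMIs, 230 of 3320 inhibitory neuron-like nuclei had a Lhx6 UMI and 290 a Prox1 UMI, and 2 had both, where 19.9 would be expected if the genes were independent within each library (ratio 0.101, 0.0122 to 0.363). Without thinning, and with the expectation taken within library and bins of similar depth, 47 nuclei had both against 171 expected (ratio 0.275, 0.202 to 0.366). In the same full-depth count Prox1 met Dlx1 in 127 nuclei against 85.3 expected (ratio 1.49, 1.24 to 1.77) and Sp8 in 16 against 6.75 expected (ratio 2.37, 1.36 to 3.85). Prox1, Dlx1 and Sp8 were all higher in caudal-type nuclei, so pooling the sides by itself raises these joint numbers. Dlx2 met Sp8 in 5 nuclei against 0.96 expected (ratio 5.21, 1.69 to 12.2). Dlx1 and Lhx6 met in 103 nuclei against 103 expected. These full-depth counts were added after the data had been seen. At 2000 UMIs the expected number was under 10 for each of the other 35 pairs, and Dlx1 with Prox1 (12 against 7.88 expected) then had an interval that included 1.

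**Figure D4:**
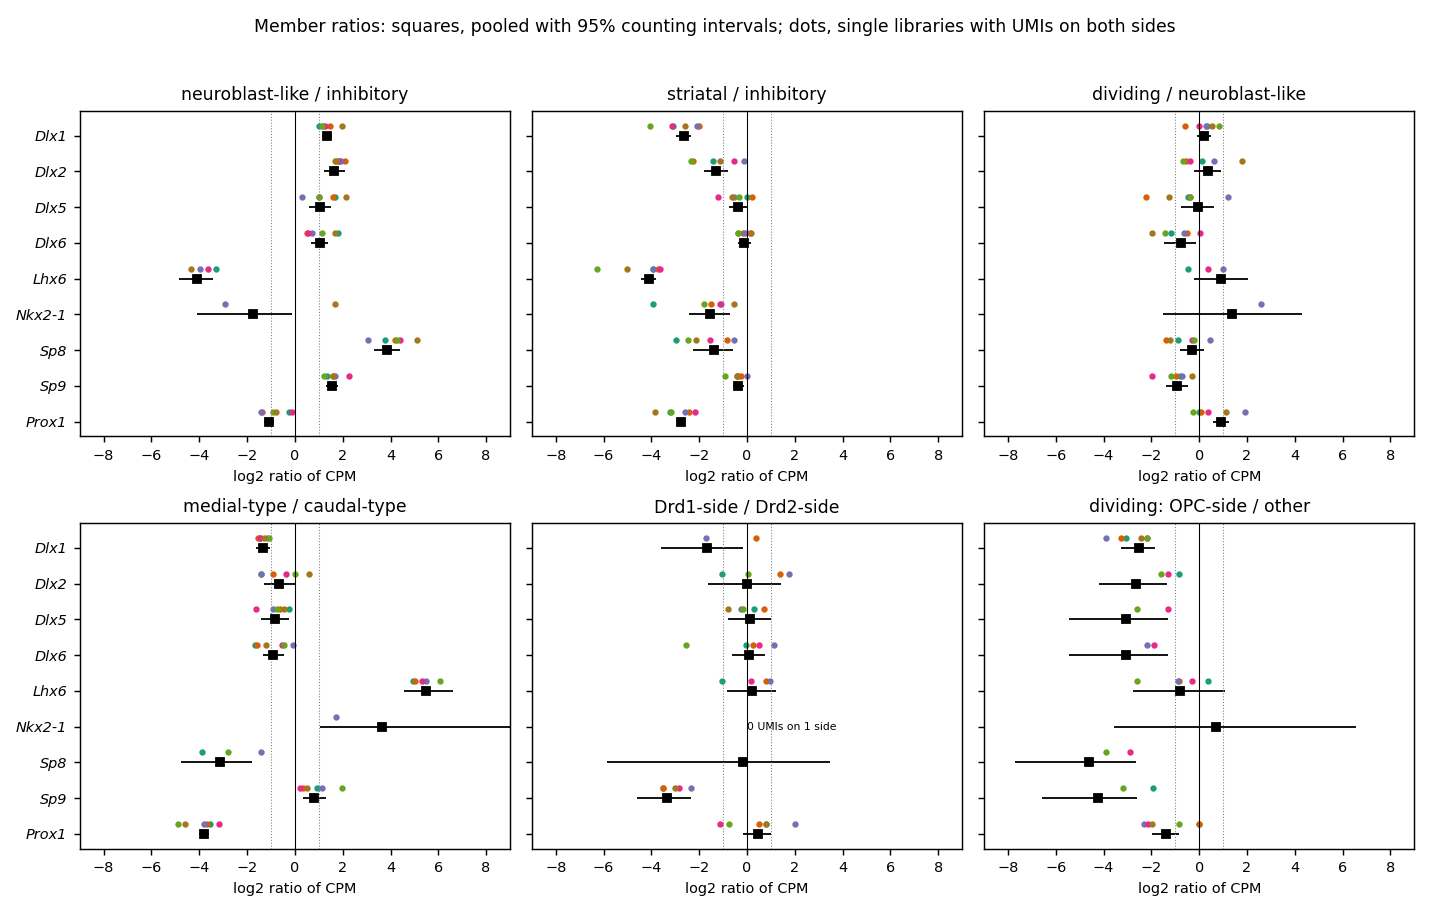
Ratios of CPM (log2) for each of the 9 genes in 6 comparisons, with squares for the joined libraries, lines for 95% counting intervals and dots for single libraries that had UMIs on both sides. Lhx6 (5.48) and Prox1 (-3.80) lie far to either side of 0 in medial-type over caudal-type nuclei, and Sp9 (-3.36) does so in Drd1-side over Drd2-side nuclei.

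Dividing-like nuclei (532) were compared with neuroblast-like nuclei, although most of the former were on the oligodendrocyte progenitor side by the split given below. Of the 7 members with at least 50 UMIs over both classes, 0 were at least 2-fold higher, against 10.3% of 12773 genes tested, and 0 were at least 2-fold lower, against 3.59%. The median log2 ratio of these members was -0.05 and that of all genes tested 0.11. Dlx1 (log2 0.19, -0.10 to 0.48), Dlx2 (0.35), Dlx5 (-0.05) and Sp8 (-0.29) had intervals that included 0. The Dlx5 ratio was -0.81 without library 3, and the Dlx1 ratio was 0.56 (0.25 to 0.88) without the nuclei of highest doublet scores and 0.54 (0.24 to 0.83) in UMIs per nucleus. Sp9 was lower in dividing-like nuclei by less than 2-fold (-0.93, -1.39 to -0.49) in 6 of 6 libraries, and passed 2-fold without library 3 (-1.06) or library 6. Without the 10% of nuclei with the highest doublet scores the Sp9 ratio was -0.34 (-0.82 to 0.10). Dlx6 was lower (-0.77) in 5 of 6 libraries. Prox1 was higher by less than 2-fold (0.92, 0.59 to 1.25) in 4 of 6 libraries, its log2 ratio without library 3 was 0.32, and it passed 2-fold without library 1 (1.06), 2 (1.04) or 5 (1.06). Dlx6os1 was 2.1-fold lower in dividing-like nuclei. Of 36 genes of the GABAergic list, 8 were higher, among them Ikzf1 (12.4-fold), Sox6 (9.16-fold) and Ebf1 (8.07-fold), and 8 were lower, among them Pbx3 (6.09-fold), Tshz1 (5.79-fold), Foxp2 (4.25-fold) and Meis2 (3.61-fold). Pbx3, Tshz1 and Meis2 are olfactory bulb-type markers, whose list counted toward the neuroblast-like name.

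Ikzf1 was also among the 10 leading genes of the microglia-like cluster, and microglia markers summed to 263 CPM in dividing-like nuclei (165 to 581 CPM over the libraries) and 97.0 CPM in neuroblast-like nuclei, but their part in the Ikzf1 ratio was not tested. The dividing-like class was not purely GABAergic, as its summed level of oligodendrocyte progenitor (OPC) markers was 2703 CPM, against 706 CPM for neuroblast markers. After these values had been seen it was split by whether at least 80% of 5 or more UMIs of both lists came from OPC markers, which gave 270 nuclei on the OPC side, 178 other nuclei and 84 with too few UMIs of these markers. Dlx1 had 22 UMIs (13.9 CPM) on the OPC side and 102 UMIs (79.8 CPM) in the other nuclei, a log2 ratio of -2.52 (-3.26 to -1.85), lower in 6 of 6 libraries. Sp8 had 2 and 39 UMIs, Sp9 3 and 46, Dlx2 6 and 30, and Dlx5 and Dlx6 each 3 and 20. Prox1 parted the sides less, at 25.3 against 66.5 CPM (log2 -1.39, -1.97 to -0.84). At 2000 UMIs 19.5% (13.8% to 26.3%) of the other dividing nuclei had a Dlx1 UMI, above the Dlx1 share of every named class, and 8.88% had a Dlx2 UMI. The named classes were not split in this way. The median doublet score was 0.70 in the dividing-like cluster and 0.33 in the neuroblast-like cluster. Against neuroblast-like nuclei, these other dividing nuclei had Dlx2 higher by a log2 ratio of 1.25 and Prox1 by 1.54, with Dlx1 at 1.00, Dlx5 at 0.90 (0.10 to 1.63) and Sp8 at 0.84 (0.29 to 1.36) within 2-fold, and Sp9 and Dlx6, lower in the whole dividing-like class, stood at 0.17 and 0.18 with intervals that included 0.

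In the Baiap3-led cluster, which held 29.7% of Nkx2-1 UMIs, nuclei with at least 2 UMIs of Gad1, Gad2 and Slc32a1 and none of Slc17a6 (2120 nuclei, GABA side) were set against those with a Slc17a6 UMI and none of the former (773 nuclei, glutamate side), also after the data had been seen. Dlx1 measured 7.91 against 1.56 CPM (log2 2.34, 1.46 to 3.37), Lhx6 11 against 1.56 CPM (2.82, 1.95 to 3.84) and Sp9 6.43 against 1.85 CPM (1.80, 0.98 to 2.75), each higher on the GABA side in 6 of 6 libraries. Dlx2 (47 and 1 UMIs), Dlx5 (51 and 2) and Dlx6 (96 and 9) went the same way. Of these 6 members, Lhx6 on the GABA side was above the microglia-like level (5.16 CPM, 3.57 to 7.21) beyond counting error, while Dlx1, Dlx2, Dlx5 and Dlx6 lay within the intervals of their microglia-like levels (7.13, 2.28, 2.88 and 4.70 CPM) and Sp9 lay below its own of 8.04 CPM (6.02 to 10.5) without leaving that interval. In the deep excitatory neuron-like nuclei Dlx1, Dlx2, Dlx5, Dlx6 and Sp9 measured 1.35, 0.569, 0.619, 0.953 and 2.13 CPM. Whether these 5 ratios compare levels near background therefore depends on the reference class. Nkx2-1 did not part the sides, with 2.13 CPM on the GABA side and 2.84 CPM on the glutamate side (log2 -0.42, -1.22 to 0.42), and neither did Prox1 (log2 0.18, -0.12 to 0.48). Among 76 nuclei of this cluster with at least 3 UMIs of the cholinergic genes Chat, Slc5a7 and Slc18a3, Nkx2-1 had 10 UMIs (10.4 CPM, 4.97 to 19.0) and Lhx6 12 UMIs (12.4 CPM, 6.42 to 21.7), while Dlx1 and Sp8 had none.

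Over whole libraries, library 3 stood apart. Across all its nuclei it had the highest CPM of Dlx1 (7.20, against 3.63 to 4.65 in the other libraries), Dlx2 (1.97, against 1.20 to 1.46), Dlx5 (2.24, against 1.61 to 1.76), Sp8 (2.17, against 0.695 to 0.896) and Sp9 (7.10, against 4.22 to 4.83). It also held 5.45% neuroblast-like nuclei, against 1.25% to 2.20% in the others. Without neuroblast-like nuclei library 3 still had the highest levels of these 5 genes, at 5.71 CPM for Dlx1 (3.42 to 4.33 in the others), 1.72 for Dlx2 (1.08 to 1.36), 2.07 for Dlx5 (1.46 to 1.66), 1.62 for Sp8 (0.487 to 0.752) and 6.07 for Sp9 (3.92 to 4.58). In microglia-like nuclei of library 3, Dlx1 measured 11.3 CPM, against 1.11 to 10.1 CPM in the other libraries. The part of these background levels in the library difference was not tested.

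The genes most like each member were found by Pearson's r of log2(CPM + 1) over the 34 clusters among 16684 genes with at least 500 UMIs, as a description, since clusters share libraries and differ in depth. Dlx1 was like Dlx2 (r = 0.892) and Cdca7 (0.875), and Dlx2 like Dlx1 (0.892) and Sp9 (0.857). Dlx5 was most like Dlx6 (0.880), Dlx6os1 (0.863) and Sp9 (0.854), and Dlx6 like Gad1 (0.929), Dlx6os1 (0.923) and Sp9 (0.910). Sp8 was most like Dlx1 (0.857), Dlx2 (0.830) and Draxin (0.80), and Sp9 like Dlx6 (0.910), Dlx6os1 (0.902) and Gm14204 (0.880). By this measure each of these 6 members had another of the 6 among its nearest genes. Lhx6 was most like Wif1 (0.775), Gm31218 (0.772) and Grpr (0.763), Nkx2-1 like Gm26973 (0.884), Sfta3-ps (0.837) and D3Ertd751e (0.825), and Prox1 like its antisense gene Prox1os (0.935), Ahsa2 (0.723) and Sema4g (0.693), none of them members. Between Lhx6 and Prox1 r was 0.286, and between Dlx1 and Prox1 it was 0.374. These nearest genes depended on the measure and on the gene minimum. With Spearman's rho 0 of the 3 were kept for Lhx6, Dlx2 and Sp8, and 1 for Dlx1, Dlx5 and Prox1. Among genes with at least 2000 UMIs 0 of the 3 were kept for Lhx6 and 1 for Dlx1 and Sp8.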

How the data were processed

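Forebrain nuclei of 6 mice, 3 of them WT and 3 Npc1-/-, were profiled by single-nucleus RNA-seq. The deposited matrix gives raw UMI counts for every gene in each barcode, written per the file headers by Cell Ranger 6.0.0, while the submitters' processing notes name Cell Ranger 2.1.1 and mm10. The study's methods describe another aligner and further filters, but the sources used here do not tie these to the deposited counts. No file key ties a library to a mouse, so genotype was not analysed, and 0 columns of other samples were present.

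Nuclei with at least 10% mitochondrial UMIs were removed. For clustering, each nucleus was scaled to 10000 UMIs before taking logs, and 3000 variable genes without the 9 members, Dlx1as and Dlx6os1, 30 principal components, 20 neighbours and Leiden clustering at resolution 1 were used (scanpy 1.11.5, leidenalg 0.10.2, Python 3.11.15, numpy 2.4.6, scipy 1.17.1). A cluster took the name of the marker list with the highest mean z-score if at least 3 markers were 2-fold above the median cluster and neither another list nor mitochondrial or ribosomal genes led its 10 top genes. Where none of its own markers was among these 10, the next list also had to score lower by 0.25 or more and the nuclei not to be shallow. The olfactory bulb-type list was joined with the neuroblast list, and the side lists with their classes, by taking the highest score. Names were rebuilt here and may differ from those of the study. Doublets were kept, and leaving out the 10% of nuclei with the highest simulated doublet score in each library was an alternative.

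UMIs were summed per class with exact Poisson (levels), Clopper-Pearson (shares) and binomial (ratios) intervals at 95%. Ratios were called at 2-fold with the interval off 1, and background shares were taken over genes with at least 50 UMIs on both sides together. Shares were compared after thinning to 2000 UMIs. Medial and caudal sides needed 5 UMIs and Drd1 and Drd2 sides 3 UMIs over both lists, 80% of them from 1 list. TMM scaling (edgeR 4.0.16, R 4.3.3) served as an alternative only. The ratio method was tested on simulated data. Genes named are the 9 members and their antisense partners, up to 4 genes in each direction of the 42-gene GABAergic list by largest ratio, and the 3 genes most like each member. Some genes that this rule names are not reported here. Gad1 in the neuroblast comparison, and Dcx, Sox11 and other cluster markers, were named after their values were seen. The members and lists were chosen with earlier results of these data known.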

Additional observations from a re-analysis of the deposited data

Results flagged for a closer look

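In 49 sets of 6 library values, the highest or lowest value was checked for a gap to its neighbour that was wide for the whole range (Dixon's 95% limit), and 11 were found. Chance gives about 1 such set in 20, and the 6 libraries are not 1 group by the labels, since they hold 2 genotypes. The sets share libraries and nuclei and are not independent, so the number found cannot be read as an excess over chance. Library 3 stood apart in 7 of them. Its share of neuroblast-like nuclei was 5.45%, against 1.25% to 2.20% in the others, and its levels over all nuclei were 7.20 CPM for Dlx1, 1.97 CPM for Dlx2, 2.24 CPM for Dlx5, 2.17 CPM for Sp8 and 7.10 CPM for Sp9, each the highest of 6. In striatal projection neuron-like nuclei of library 3, Sp8 measured 1.19 CPM, against 0.153 to 0.471 CPM in the others. In library 2 the share of dividing-like nuclei was 0.472%, the lowest, against 0.710% to 0.815%. In library 6 neuroblast-like nuclei had 61.4 CPM of Dlx1, against 28.3 to 40.3 CPM, and 3.51 CPM of Nkx2-1, against 0 to 0.233 CPM, the latter from 2 UMIs, and dividing-like nuclei had 36.3 CPM of Dlx2, against 5.73 to 14.7 CPM. Without neuroblast-like nuclei library 3 still had the highest levels, at 5.71 CPM for Dlx1, 1.72 CPM for Dlx2, 2.07 CPM for Dlx5, 1.62 CPM for Sp8 and 6.07 CPM for Sp9.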

How the results depend on the processing

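Of 638 ratios recomputed under the alternatives, 603 stayed within the counting interval of the reported value, and 35 moved outside it. All 23 ratios past 2-fold kept their sign in every alternative that gave a value. The number of members higher in neuroblast-like than in inhibitory neuron-like nuclei fell from 6 to 1 in UMIs per nucleus, and the number lower fell from 3, Nkx2-1 included, to 1 as the median of libraries, with 1 to 3 when each library was left out. Between dividing-like and neuroblast-like nuclei the number higher rose from 0 to 1 with nuclei of at least 2000 UMIs and under 1% mitochondrial UMIs, 1 without the highest 10% of doublet scores, 2 in UMIs per nucleus, 1 as the median of libraries, 2 without the OPC side (chosen after seeing the data), and 0 to 1 with each library left out. These counts include members under the count minimum. As the median of libraries the member was Nkx2-1 (log2 2.60), with 3 UMIs in each class, while Prox1 stood at 0.21. In UMIs per nucleus the members were Prox1 (1.27) and Lhx6 (1.26), the latter with 13 UMIs in dividing-like and 18 in neuroblast-like nuclei. The number lower rose from 0 to 1 with TMM scaling, and was 0 to 1 with each library left out. Between the Drd1 and Drd2 sides the number lower fell from 2, Dlx1 included, to 1 at resolution 2, in UMIs per nucleus, as the median of libraries and with sides at 5 UMIs and 90%, and was 1 to 2 with each library left out. The cause was not tested. TMM scaling lowered each neuroblast-like over inhibitory ratio alike, with Dlx1 at 1.12, Dlx5 at 0.81 and Dlx6 at 0.80 (log2), so that 4 of the 6 stayed past 2-fold. Depth limits what can be said of Nkx2-1 (350 UMIs), Sp8 (548) and Dlx2 (725). At 4000 UMIs few microglia-like nuclei were left, and Dlx2, Dlx5, Dlx6 and Sp9 then exceeded their share in 0 classes, while inhibitory neuron-like nuclei no longer exceeded it for Dlx1 and Prox1, nor dividing-like nuclei for Sp8. The ratio of Nkx2-1 between the inhibitory sides could not be computed without library 3, which held its only caudal-type UMI. Between WT and Npc1-/- mice, no paired analysis was possible because the barcodes carry none of the labels' replicate numbers. Classes within a library could be paired by the barcode suffix alone, and these ratios are given as values and counts of libraries. No test was run over them, since the labels put the libraries in no group.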
